A study of Mus musculus with 12 samples.

Results

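The 9 genes described here encode the subunits of the hypoxia-inducible factors (HIFs) and the proteins that read oxygen for them: Hif1a, Epas1, Arnt, Egln1, Egln2, Egln3, Hif1an, Vhl and Cited2. They were taken by symbol from the expression values of 12 tumors, with the highest-mean probeset kept for each gene, and they are 9 of 19938 genes that carry exactly 1 symbol on the array. Each of the 9 had 1 such probeset, and all 9 were among the 16573 genes that passed the filter on low values (log2 above 5.38 in at least 4 arrays). The tumors grew from J2A cells, a single line of aortic myofibroblasts from C57BL/6 mice deficient for p16, p19 and Vnn1, which were transformed with a retroviral vector that carries GFP fused to oncogenic H-Ras. R tumors came from mock cells with Ras alone, VR tumors from Ras cells given an intact Vnn1, and VdR tumors from Ras cells given a catalytically deficient Vnn1, the transgene being driven by a cytomegalovirus promoter. Vnn1 is the pantetheinase that splits pantetheine into cysteamine and the coenzyme A precursor pantothenate. Every group shares the 3 gene deficiencies and the Ras oncogene, and each holds 4 tumors, numbered 1, 2, 4 and 5. The cells were grafted under the skin of nude mice and the tumors were taken after 2 to 3 weeks according to how fast each grew, per the labels, whereas the study's methods give a fixed day within that span for all groups. Such a host still supplies vessels and macrophages, and since the line and the host are both mouse their transcripts are read by the same probes. All replicates are grafts of the same line, so the p-values measure the spread between grafts only.

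HIFs are heterodimers of an oxygen-labile alpha subunit, HIF-1alpha (Hif1a) or HIF-2alpha (Epas1), and the stable partner ARNT. When oxygen is present, the prolyl hydroxylases of the EGLN family mark the alpha subunit, the VHL ubiquitin ligase takes up the marked protein and the proteasome degrades it, while the asparaginyl hydroxylase FIH (Hif1an) blocks its contact with the coactivators p300 and CBP. CITED2 competes with HIF-1alpha for the same coactivators. Much of the control of HIF-1alpha thus acts on the protein and is not read by an mRNA array. EGLN1, EGLN3 and CITED2 are themselves products of HIF target genes, which closes a feedback loop.

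The values are log2 intensities from whole-transcript arrays, 1 array per tumor. The array medians lay between 6.66 and 6.77, and values correlated between tumors of a group with r from 0.988 to 0.996 across genes. Vnn1 matched the labels, with 10.87 ± 0.34 in VR, 11.56 ± 0.16 in VdR and 5.70 ± 0.13 in R tumors (mean ± SD, n = 4 each). Its level was 1.61-fold lower in VR than in VdR tumors, without overlap. Those groups thus differ in the transcript level of the transgene as well as in catalytic activity. Myofibroblast markers were present in every tumor, with a mean over 11 genes of 11.30 to 11.90. Macrophage markers were lower in R than in both other groups, with a mean over 13 genes of 10.11 to 10.27 in VR, 10.27 to 10.57 in VdR and 9.26 to 9.56 in R tumors. Against R, 10 of the 13 rose in VR, where 13.6% of all genes tested did, and 12 in VdR, where 6.58% did. In whole tumors fewer cells of a type and less RNA per cell cannot be told apart. The part of these cell types in the results below was not tested.

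The 3 groups were compared in pairs to ask whether the oxygen-sensing genes differed with Vnn1, and whether with its catalytic activity. In VR against R tumors 3 of the 9 genes passed the test (limma over all 12 arrays, adjusted p under 0.05): Epas1 rose, and Egln1 and Egln3 fell. That is 1 of 9 higher where 13.6% of the 16573 genes tested were higher, and 2 of 9 lower where 7.48% were lower. The groups did not overlap for the same 3 genes, against 25.8% of all genes tested. With catalytically deficient Vnn1, Hif1a and Egln1 fell against R and none rose, against 2.81% lower and 6.58% higher over all genes. For 1 of the 9, Hif1a, the VdR and R tumors did not overlap, against 14.2% of all genes. In VR against VdR tumors Epas1 rose and no other gene of the 9 passed, against 1.77% higher and 1.67% lower over all genes. Epas1 was also the only 1 of the 9 without overlap between VR and VdR, against 12.6% of all genes. The median difference of the 9 was -0.14 in VR and -0.11 in VdR against R, and -0.0069 in VR against VdR, where the medians of all genes tested were -0.015, 0.0038 and -0.018. The first and second of these comparisons share the R tumors, and so their differences are not independent.

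**Figure D1:**
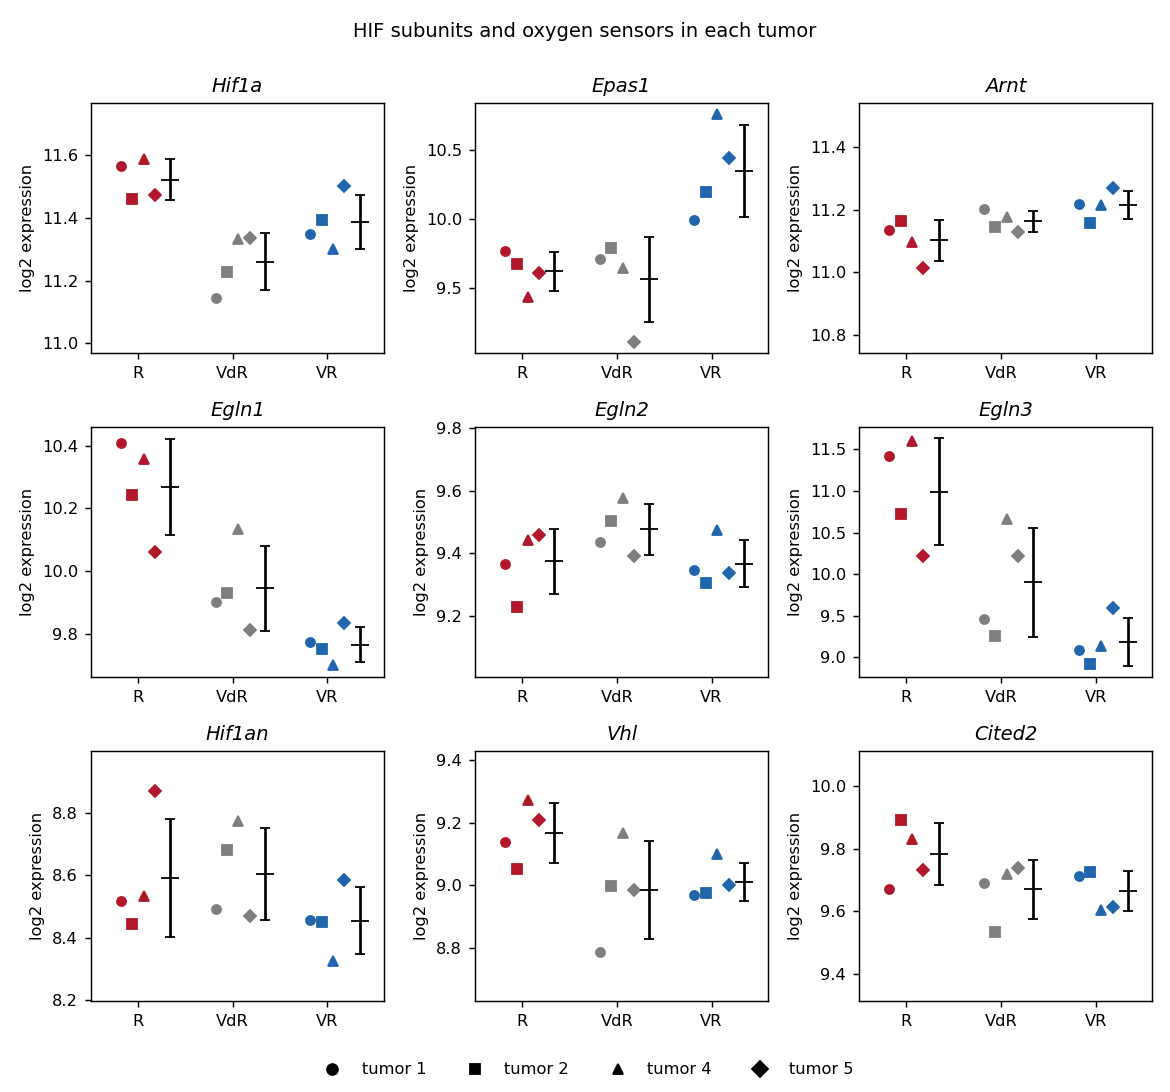
Log2 expression (y axis, a scale of its own in each panel) of the 9 genes in each R, VdR and VR tumor (x axis); the symbol shape gives the tumor number and the bar the mean ± SD of 4 tumors. The VR tumors lie above all others for Epas1 and below all R tumors for Egln1 and Egln3, while Hif1an and Egln2 overlap across groups.

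Of the alpha subunits, Hif1a was lowest in VdR tumors. It measured 11.57, 11.46, 11.59 and 11.47 in R tumors 1, 2, 4 and 5. The VdR tumors read 11.15, 11.23, 11.33 and 11.34, and the VR tumors 11.35, 11.39, 11.30 and 11.50. All VdR values were below all R values, while the VR values ran into the ranges of both other groups. Between VdR and R tumors Hif1a fell by 0.26 on the log2 scale (SE 0.063, 95% CI -0.40 to -0.13, adjusted p = 0.0209), which is 1.20-fold lower and gave an exact two-sided permutation p of 0.0286, the smallest that 4 against 4 tumors allow. In VR against R the difference was -0.14 (95% CI -0.27 to 0.00085, adjusted p = 0.146), and in VR against VdR 0.13 (adjusted p = 0.304). The VdR call was lost without R tumor 1 (adjusted p = 0.0660) or 4 (0.0661), without VdR tumor 1 (0.0604) or 2 (0.0611), and with the methods' t-test, which takes each gene alone (0.0744). With arrays weighted by their quality, Hif1a also passed in VR against R (-0.18, adjusted p = 0.0208).

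Epas1, the alpha subunit that is abundant in endothelial cells and other selected cell types, was highest in VR tumors. It read 9.99, 10.19, 10.76 and 10.44 in VR tumors 1, 2, 4 and 5. In R tumors it read 9.76, 9.67, 9.43 and 9.60, and in VdR tumors 9.71, 9.79, 9.64 and 9.11. All 4 VR tumors were above all 8 others, whereas R and VdR tumors overlapped. The gene rose by 0.73 on the log2 scale in VR against R (SE 0.17, 95% CI 0.36 to 1.10, adjusted p = 0.00997), or 1.66-fold. Against VdR it rose by 0.78 (SE 0.17, 95% CI 0.41 to 1.15, adjusted p = 0.0312), or 1.72-fold, and the exact two-sided permutation p was 0.0286 in both comparisons. VdR and R tumors differed by -0.056 (95% CI -0.43 to 0.31, adjusted p = 0.886). The call against R was lost with the methods' t-test alone (adjusted p = 0.0518). That against VdR was lost without VdR tumor 1 (adjusted p = 0.0525), 4 (0.0688) or 5 (0.0670), without VR tumor 2 (0.0622), 4 (0.0821) or 5 (0.0737), with these 2 groups fitted alone (0.0575) and with the methods' t-test (0.178). The call against VdR was also lost with the tumor number as a replicate block, as given in the part on processing.

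Endothelial, myofibroblast and pericyte markers were all highest in VR tumors 4 and 5, the tumors with the most Epas1. The mean over 12 endothelial genes was 9.19, 9.26, 9.56 and 9.47 in the VR tumors, 9.27, 9.12, 8.98 and 8.70 in the R tumors and 9.01, 9.15, 9.07 and 8.84 in the VdR tumors. VdR tumor 5 was the lowest of its group for these markers and for Epas1, whereas among R tumors the lowest was tumor 5 for the markers and tumor 4 for Epas1. In VR against R tumors 3 of the 12 markers rose, where 13.6% of all genes did: Tek (1.01, adjusted p = 0.000669), which encodes the angiopoietin receptor, Eng (0.91, adjusted p = 0.000418), a TGF-beta co-receptor, and Kdr (0.90, adjusted p = 0.00629), which encodes the main VEGF receptor. Tek and Eng also rose in VR against VdR tumors, by 0.77 (adjusted p = 0.0188) and 0.60 (adjusted p = 0.0236), where 1.77% of all genes rose, and none of the 12 passed in VdR against R. The junction genes Pecam1 (0.40, adjusted p = 0.142) and Cdh5 (0.24, adjusted p = 0.371) did not pass in VR against R, nor did Cldn5 (-0.54, adjusted p = 0.133). The myofibroblast mean over 11 genes was 11.90 and 11.84 in VR tumors 4 and 5 and at its VdR lowest in tumor 5 (11.45), and 6 of the 11 rose in VR against R and 1 in VR against VdR. The pericyte mean over 5 genes was 9.09 and 9.26 in VR tumors 4 and 5, but 8.52 in VR tumor 1. In VR against R 0 of the 5 rose and 1 fell, Rgs5 (-0.40, adjusted p = 0.0369), where 7.48% of all genes fell. Rgs5 also fell in VdR against R (-0.95, adjusted p = 0.000606) and rose in VR against VdR (0.55, adjusted p = 0.0353). The macrophage markers, which were high in VdR tumors too, did not share the order of Epas1. The part of any of these cell types in the Epas1 values was not tested.

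Arnt, the common beta subunit, was the steadiest of the 9 genes, with an SD over the 12 tumors of 0.066 that 6.08% of the genes tested did not exceed. It measured 11.16 to 11.27 in VR, 11.13 to 11.20 in VdR and 11.01 to 11.16 in R tumors. The difference in VR against R was 0.11 (95% CI 0.0062 to 0.22, adjusted p = 0.123), and it did not pass in either other comparison (0.060, adjusted p = 0.519, in VdR against R, and 0.053, adjusted p = 0.609, in VR against VdR).

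Among the prolyl hydroxylases, Egln3 moved most. It read 11.42, 10.73, 11.61 and 10.21 in R tumors 1, 2, 4 and 5. The VdR tumors read 9.46, 9.26, 10.67 and 10.22, and the VR tumors 9.09, 8.92, 9.14 and 9.59. The VR tumors were all below the R tumors, while VdR tumors 4 and 5 reached into the R range and tumors 1 and 2 into the VR range. In VR against R Egln3 fell by 1.81 on the log2 scale (SE 0.34, 95% CI -2.54 to -1.07, adjusted p = 0.00299), which is 3.50-fold lower and the 48th largest change among all genes tested. The drop of 1.09 in VdR against R did not pass (SE 0.34, 95% CI -1.83 to -0.36, adjusted p = 0.0649, exact two-sided permutation p = 0.0857), nor did the difference of -0.72 in VR against VdR (95% CI -1.45 to 0.019, adjusted p = 0.275). The spread within R and VdR tumors was wide, with SDs of 0.64 and 0.66 against 0.29 in VR tumors. Its VdR difference did pass without R tumor 5 (-1.35, adjusted p = 0.0210) or VdR tumor 4 (adjusted p = 0.0263), the low R and the high VdR tumor, and with array weights (adjusted p = 0.00850). Skeletal muscle markers, a mean over 6 genes, were high in R tumors 2 and 5 (10.04 and 9.18), VdR tumors 2 and 4 (9.66 and 10.09) and VR tumor 2 (9.22) and between 6.76 and 6.93 in the other 7 tumors, and the high tumors were the lower ones for Egln3 in R and VR but not in VdR.

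Egln1, the main hydroxylase of HIF-1alpha in normal oxygen, followed a similar order at a smaller size. It read 10.41, 10.24, 10.36 and 10.06 in R tumors, 9.90, 9.93, 10.13 and 9.81 in VdR tumors and 9.77, 9.75, 9.70 and 9.83 in VR tumors. VR tumors again lay below all R tumors, and VdR tumor 4 exceeded R tumor 5. Egln1 fell by 0.50 in VR against R (SE 0.084, 95% CI -0.69 to -0.32, adjusted p = 0.00158, 1.42-fold lower) and by 0.32 in VdR against R (SE 0.084, 95% CI -0.51 to -0.14, adjusted p = 0.0305, 1.25-fold lower). The exact two-sided permutation p was 0.0286 for the first and 0.0571 for the second. VR and VdR tumors differed by -0.18 (95% CI -0.36 to 0.0014, adjusted p = 0.265). The VR calls of Egln1 and Egln3 held in all 22 alternative fits. The VdR call of Egln1 was lost without R tumor 1 (adjusted p = 0.0958), 2 (0.0502) or 4 (0.0915), without VdR tumor 1 (0.0769), 2 (0.0776) or 5 (0.0756), with 2 groups fitted alone (0.0757) and with the methods' t-test (0.163).

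Egln2, the hydroxylase of this family that is not known as a hypoxia-induced gene, did not pass in any comparison. It ranged from 9.30 to 9.48 in VR, 9.39 to 9.58 in VdR and 9.23 to 9.46 in R tumors. The difference in VR against R was -0.0082 (95% CI -0.15 to 0.13, adjusted p = 0.936), so the interval leaves out a drop of the size seen for Egln1 or Egln3. In VdR against R it was 0.10 (adjusted p = 0.395), and in VR against VdR -0.11 (adjusted p = 0.399).

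The promoters of the 3 hydroxylase genes are shown because Egln1 and Egln3 moved and Egln2 did not, and because HIFs bind a short core with the letters ACGTG or GCGTG. The RefSeq windows (GRCm38.p6) run from 250 bases before to 50 bases after the annotated start and are written 5′ to 3′ on the strand of the gene, with the core letters, on either strand, in capitals. They are chr8:124949205-124949504 (minus strand) for Egln1, chr12:54203825-54204124 (minus strand) for Egln3 and chr7:27166753-27167052 (minus strand) for the first of the Egln2 starts.
Egln1: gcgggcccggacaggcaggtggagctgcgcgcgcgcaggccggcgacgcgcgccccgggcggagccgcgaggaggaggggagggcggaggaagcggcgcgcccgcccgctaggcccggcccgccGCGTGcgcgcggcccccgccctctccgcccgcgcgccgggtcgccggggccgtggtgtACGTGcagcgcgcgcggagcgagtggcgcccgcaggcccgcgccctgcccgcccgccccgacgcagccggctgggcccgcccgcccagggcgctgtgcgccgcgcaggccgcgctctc
Egln3: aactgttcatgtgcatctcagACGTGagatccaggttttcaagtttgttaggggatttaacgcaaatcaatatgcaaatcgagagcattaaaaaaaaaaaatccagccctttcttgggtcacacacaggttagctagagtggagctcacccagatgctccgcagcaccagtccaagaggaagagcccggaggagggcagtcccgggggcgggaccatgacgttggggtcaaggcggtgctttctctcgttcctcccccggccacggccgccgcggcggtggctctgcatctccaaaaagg
Egln2: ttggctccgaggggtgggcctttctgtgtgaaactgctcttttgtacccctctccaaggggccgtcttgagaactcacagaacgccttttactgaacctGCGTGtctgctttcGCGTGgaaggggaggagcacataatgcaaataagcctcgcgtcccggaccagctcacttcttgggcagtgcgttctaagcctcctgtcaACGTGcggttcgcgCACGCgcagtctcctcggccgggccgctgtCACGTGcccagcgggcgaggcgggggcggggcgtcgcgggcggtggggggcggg
Egln1 held 2 matches, GCGTG at 126 and ACGTG at 68 bases before the start, and Egln3 held 1, ACGTG at 229 bases before it. The first Egln2 window held 6, of which 2 are the same palindrome CACGTG read on each strand, and a second Egln2 start (chr7:27165679-27165978) held 1. Whether the matches bear on the expression differences was not tested, and sequence outside these windows was not searched. Of 32851 mouse windows of this length, 43.8% held at least 1 match and 8.93% at least 3. Windows were found for 8 of the 9 genes, and 6 of the 8 held a match (Hif1a, Arnt, Egln1, Egln2, Egln3 and Cited2). A match is a run of letters and not a site shown to be bound.

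Hif1an, Vhl and Cited2 did not pass in any comparison. The products of Hif1an and Vhl act on the alpha subunit beside or after the prolyl hydroxylases, and CITED2 competes with HIF-1alpha for coactivators. Hif1an ranged from 8.33 to 8.59 in VR, 8.47 to 8.77 in VdR and 8.44 to 8.87 in R tumors, and differed by -0.14 in VR against R (95% CI -0.35 to 0.079, adjusted p = 0.344). Vhl, the substrate receptor of the ligase, ranged from 8.97 to 9.10 in VR, 8.79 to 9.17 in VdR and 9.05 to 9.27 in R tumors. Its difference was -0.16 in VR against R (95% CI -0.33 to 0.011, adjusted p = 0.170) and -0.18 in VdR against R (adjusted p = 0.174). Cited2 ranged from 9.60 to 9.72 in VR, 9.53 to 9.74 in VdR and 9.67 to 9.89 in R tumors, and differed by -0.12 in VR against R (95% CI -0.26 to 0.023, adjusted p = 0.216). In VR against VdR the differences were -0.15 for Hif1an, 0.026 for Vhl and -0.0069 for Cited2, with adjusted p of 0.457, 0.892 and 0.967. In VdR against R, Hif1an differed by 0.013 (adjusted p = 0.960) and Cited2 by -0.11 (adjusted p = 0.343). The VR against R intervals of Hif1an and Vhl reach past the size called for Hif1a, so these values do not show that the genes stayed level.

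**Figure D2:**
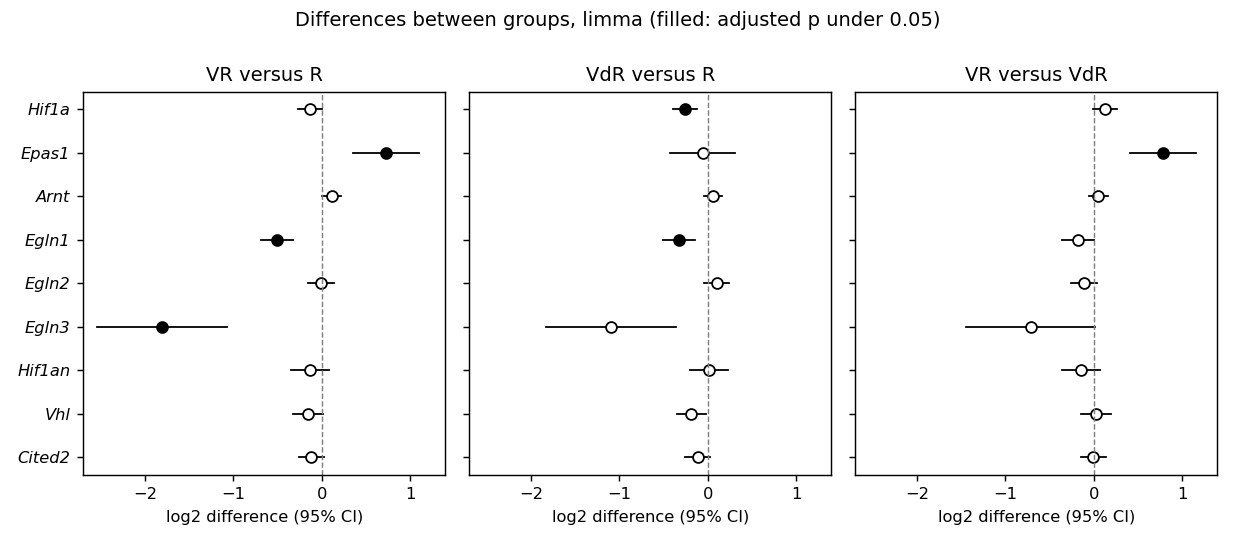
Log2 difference between groups (x axis) with its 95% confidence interval from limma for each of the 9 genes (y axis) in VR against R, VdR against R and VR against VdR tumors; filled points have an adjusted p under 0.05. Egln3 and Egln1 lie left of 0 and Epas1 right of it in VR against R, and Epas1 alone is filled in VR against VdR.

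Other genes of the pathway were counted in lists of partners and of targets, both drawn up with earlier results of these data known. Of 25 HIF partners and turnover factors 23 were measured, and their median difference stayed near that of all genes (-0.037 in VR against R, -0.018 in VdR against R and -0.022 in VR against VdR). In VR against R 2 of the 23 rose and 2 fell, which is about the share over all genes (13.6% higher and 7.48% lower) and so no result about the list. Pkm, the pyruvate kinase gene whose M2 form is described as a HIF-1 coactivator, fell by 0.43 (adjusted p = 0.00630). Crebbp, which encodes the coactivator CBP, rose by 0.31 (adjusted p = 0.00901), and Rbx1, the RING subunit of the VHL ligase, fell by 0.29 (adjusted p = 0.00895). Ncoa1, a coactivator gene, also rose (0.40, adjusted p = 0.0121). The other subunits of the VHL ligase did not pass, with -0.030 for Eloc (adjusted p = 0.766), 0.014 for Elob (adjusted p = 0.906) and 0.093 for Cul2 (adjusted p = 0.373). The VdR tumors had 1 of the 23 higher than R, Usp20, a deubiquitinase gene of the pathway (0.27, adjusted p = 0.04998, just under the threshold), and none lower. Over all genes tested 6.58% were higher and 2.81% lower in that comparison. In VR against VdR Crebbp rose (0.30, adjusted p = 0.0400) and the ubiquitin ligase gene Stub1 fell (-0.34, adjusted p = 0.0447). There 1.77% of all genes rose and 1.67% fell. Neither comparison thus gives a result about the list.

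HIF target genes moved as a large majority in VR tumors. Of 27 listed targets 25 were measured, and 22 fell and 0 rose in VR against R, where 7.48% of all genes fell. Against R, 6 fell in VdR tumors and 0 rose there, where 2.81% of all genes fell. In VR against VdR 1 fell and 0 rose, where 1.67% of all genes fell, so that count is no result about the list. The medians of the targets were -0.78, -0.63 and -0.21, where those of all genes tested were -0.015, 0.0038 and -0.018. This list was drawn up with earlier results of these data known and is not independent evidence of a direction. The lowest adjusted p in VR against R were those of the glycolytic gene Tpi1 (-0.66, adjusted p = 0.000459), the MYC antagonist gene Mxi1 (-0.73, adjusted p = 0.000859) and Ankrd37 (-1.39, adjusted p = 0.00126). The mean of the 25 targets was 10.65, 10.18, 10.69 and 9.72 in the R tumors, 9.43, 9.44, 10.10 and 9.57 in the VdR tumors and 9.23, 9.33, 9.35 and 9.45 in the VR tumors. R tumor 5 was the lowest R tumor and VdR tumor 4 the highest VdR tumor, as they were for Egln3. VR tumor 5 was likewise the highest VR tumor for the targets and for Egln3.

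**Figure D3:**
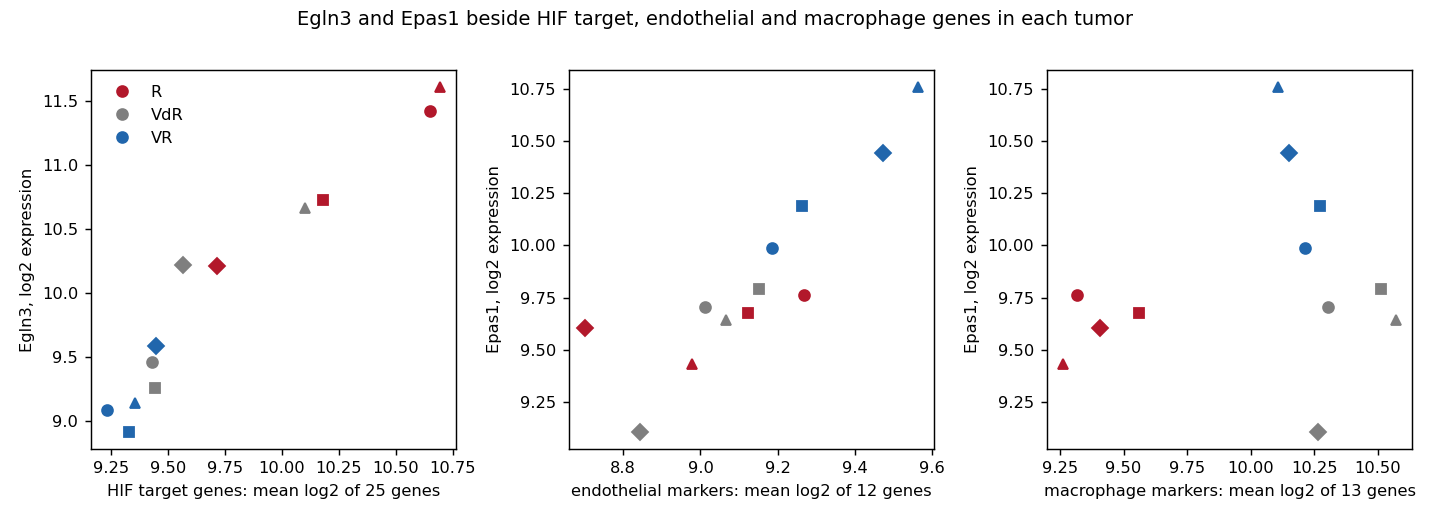
Log2 expression of Egln3 against the mean log2 level of 25 HIF target genes (left), and of Epas1 against that of 12 endothelial (middle) and 13 macrophage markers (right); each point is 1 of 12 tumors, with color for the group and shape for the tumor number (circle 1, square 2, triangle 4, diamond 5). Egln3 rises with the target level within R and across groups, and the VR tumors with the highest endothelial level, 4 and 5, have the highest Epas1.

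The genes most like each called gene over the 12 tumors were then listed by Pearson r, as a description over tumors that share their groups. This r takes in the differences between groups. The group differences given below for the listed genes thus follow in part from the choice and are no added evidence. For Egln3 the listed genes were Pfkl (r = 0.99), the liver-type phosphofructokinase gene, Bnip3 (r = 0.98), a mitophagy receptor gene, and Slc2a1 (r = 0.98), which encodes the glucose transporter GLUT1. After subtraction of the group means r was still 0.97, 0.95 and 0.94. For Egln1 they were Ero1a (r = 0.98), an oxidase gene of protein folding, Slc2a1 (r = 0.96) and Bnip3 (r = 0.96), with 0.91, 0.87 and 0.87 within groups. Slc2a1, Bnip3 and Ero1a are on the target list as well. All 4 fell in VR against R tumors, with differences of -1.28 for Pfkl (adjusted p = 0.00382), -1.95 for Bnip3 (adjusted p = 0.00352) and -1.61 for Ero1a (adjusted p = 0.00140), and with an adjusted p of 0.00273 for Slc2a1.

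Epas1 was most like Cdc42bpb (r = 0.97), a kinase gene of the actin cytoskeleton, Ddr2 (r = 0.97), a collagen receptor gene of mesenchymal cells, and Dysf (r = 0.96), a membrane repair gene. Within groups r was 0.94, 0.91 and 0.87. Dysf rose by 0.51 (adjusted p = 0.0125) and Ddr2 by 0.18 (adjusted p = 0.0346) in VR against R, while Cdc42bpb differed by 0.14 (adjusted p = 0.0828). None of the 12 endothelial markers was among the 3 genes, which does not tell how closely those markers followed Epas1. Hif1a was most like Kdm5b (r = 0.95), a histone demethylase gene, Kdsr (r = 0.94), a gene of sphingolipid synthesis, and Tmeff1 (r = 0.93). Of these Tmeff1 fell in VdR against R (-1.16, adjusted p = 0.00318) and Kdm5b did too (-0.38, adjusted p = 0.0210), whereas Kdsr differed by -0.23 (adjusted p = 0.0595).

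**Figure D4:**
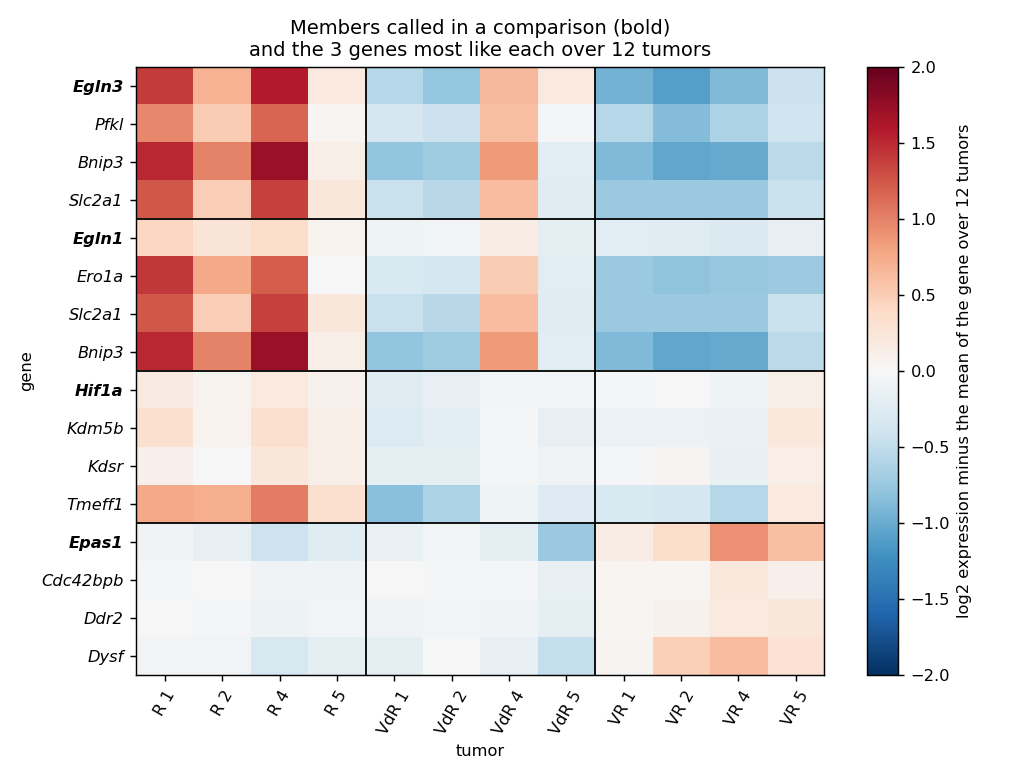
Log2 expression of each gene minus its mean over 12 tumors (color scale, red above and blue below the mean) for the 4 genes called in a comparison (bold) and the 3 genes most like each (rows) in every tumor (columns). R tumors 1, 2 and 4 stand above the mean in the Egln3 and Egln1 blocks, R tumor 5 less so, and the VR tumors stand above it in the Epas1 block.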

How the data were processed

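RNA of 12 tumors was hybridised to mouse Affymetrix gene arrays (MoGene ST). The study's methods speak of RNA from the whole tumor mass, whereas the labels speak of sorted cell subsets. The deposited values are on a log2 scale, made by the authors with RMA in the oligo package, which subtracts background, sets the arrays to a common distribution and combines the probes of a probeset. Of 35556 probesets, 21789 named 1 gene, 1621 several and 12146 none, and genes were taken from the first kind only.

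Differences were tested with limma 3.58.1 in R 4.3.3 on the deposited values, with 1 coefficient per group over all 12 arrays and Benjamini-Hochberg adjustment over 16573 genes. Genes entered the test when 4 or more arrays read above 5.38 on the log2 scale, which is percentile 25 over the whole table. The limma fit was tested on simulated data. Exact permutation tests, two-sided and unadjusted, were run for the 27 differences of the 9 genes. All 9 were named in every comparison, with the 3 genes of lowest adjusted p of the partner and target lists, the 4 other dioxygenases, and the 3 genes most correlated with each called gene. Other called genes, the remaining VHL ligase subunits and single cell markers were named after their values were seen. The members and lists were chosen with earlier results of these data known. The 22 alternative fits covered normalization, filter, probeset rule, array weights, spread, samples, tumor number, the methods' t-test (named there for qRT-PCR, and here run per gene) and each tumor left out, and counts were also taken at 1.5-fold or more. The number of arrays limits the precision, and no batch is given in the sources used here.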

Additional observations from a re-analysis of the deposited data

How the results depend on the processing

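In VR against R, the 3500 genes called became 5667 with array weights, 2120 with the methods' t-test and 967 at 1.5-fold or more, and 2458 to 3581 with 1 tumor left out. For VdR against R, 1555 became 2595, 493 and 496, and 961 to 1775 with 1 tumor left out (961 without VdR tumor 2). In VR against VdR, 570 became 884, 30 and 125, and 86 to 748 with 1 tumor left out (86 without VR tumor 4). At an unadjusted p under 0.05 the methods' t-test gave 5467, 3254 and 2839 genes. Of the 9 genes, 3 were called in VR against R with any tumor left out. Among them, Epas1 was lost there with the methods' t-test (adjusted p = 0.0518), and Egln1, at 1.42-fold lower, with the 1.5-fold limit. Array weights added Hif1a in VR against R (adjusted p = 0.0208). In VdR against R, 2 became 1 with the 2 groups fitted alone, 0 with the methods' t-test, 0 at 1.5-fold and 0 to 3 with 1 tumor left out (3 without R tumor 5). In VR against VdR, 1 became 0 with the 2 groups fitted alone, 0 with the methods' t-test and 0 to 1 with 1 tumor left out. Differences that did not pass changed sign for Hif1an in VdR against R (-0.026 with cyclic loess, -0.011 with median centring, -0.043 to 0.11 with 1 tumor left out), Epas1 in VdR against R (-0.13 to 0.095, the highest without VdR tumor 5), Egln2 in VR against R (0.018 with array weights, -0.056 to 0.020 with 1 tumor left out), and in VR against VdR for Cited2 (0.0051 with cyclic loess, 0.0068 with median centring, -0.053 to 0.016) and Vhl (-0.040 to 0.088). The cause was not tested. Tumor numbers are not described as a pairing. Of 12 pairs of tumors with the same number in different groups, 8 correlated above 0.1 (-0.15 to 0.40, median 0.14, against -0.067 for other numbers), and 3 of 12 tumors correlated best with their own number. With the number as a replicate block, 3927, 1654 and 621 genes were called in VR against R, VdR against R and VR against VdR, and Epas1 in VR against VdR no longer passed (adjusted p = 0.0511), which left 0 of the 9 genes called there. The array signal gives mRNA levels only, and with 4 tumors a group exact tests cannot go below 0.0286.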

Other observations

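Beyond the EGLN enzymes and FIH, 4 other dioxygenases that respond to oxygen were measured: Ado, which oxidises cysteamine and N-terminal cysteines, the histone demethylases Kdm5a and Kdm6a, and the transmembrane prolyl hydroxylase P4htm. Ado was the only 1 of the 4 to pass in any comparison. It read 9.66, 9.52, 9.54 and 9.48 in VdR tumors 1, 2, 4 and 5, and 9.35, 9.20, 9.29 and 9.38 in VR tumors. The R tumors, at 9.41, 9.41, 9.44 and 9.35, lay below all VdR tumors and overlapped the VR tumors. In VR against VdR tumors Ado fell by 0.24 on the log2 scale (SE 0.055, limma adjusted p = 0.0357), with no overlap between those groups, which is a small difference in a comparison where 1.67% of all genes fell. Against R tumors it differed by -0.094 in VR (adjusted p = 0.243) and by 0.15 in VdR (adjusted p = 0.118). Kdm5a differed by -0.27 in VdR against R (adjusted p = 0.0521), while Kdm6a and P4htm differed by -0.061 and 0.076 in VR against R (adjusted p = 0.779 and 0.585).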
